A study of Mus musculus with 8 samples.

Results

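The genes that encode the subunits of oxidative phosphorylation were compared between 4 control and 4 dtg mouse hearts, each hybridised to its own 1-colour array. The members were chosen by name alone: symbols beginning with Nduf (assembly factors left out), Sdha to Sdhd, Uqcr, Cyc1, Cycs, the lettered Cox4 to Cox8 families and Atp5. The rule found 87 of the 32594 genes and unnamed features on the arrays, on 118 probes. Of these, 86 had a probe that exceeded background clearly on 4 arrays or more, as did 21434 genes and features in all. The member without one was Cox8c, a testis form of a cytochrome c oxidase subunit, which was not well above background on any of the 8 arrays. The 87 genes comprised 38 of complex I (7 core and 31 accessory subunits), 4 of complex II, 9 of complex III, cytochrome c itself (Cycs), 18 of complex IV and 17 of complex V. The subunits encoded by mitochondrial DNA do not have these names and were not analysed here.

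All hearts came from male C57BL6 mice that carried Cre recombinase and had been given 4OH-tamoxifen (500 µg, on 10 successive days) at 8 months of age, and they were taken 6 weeks afterwards. Control mice were positive for Cre and lacked the floxed IGF-1R gene; dtg mice were merCremer/+ IGFloxP/IGFloxP. MerCremer is a Cre recombinase held inactive until tamoxifen binds it, so the treatment was meant to excise part of the receptor gene for insulin-like growth factor 1 in the dtg group alone. The promoter that drives merCremer is not given in the labels. Whether each sample was a separate animal is not stated either. A p-value here therefore reflects the spread among the 8 samples alone, and that spread may be technical. RNA was from whole heart, in which fewer cells of a type and less RNA per cell cannot be told apart.

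Oxidative phosphorylation takes place in the inner mitochondrial membrane. Complexes I and II pass electrons from NADH and succinate to ubiquinone, complex III passes them on to cytochrome c, and complex IV hands them to oxygen, while complexes I, III and IV pump protons. Complex V lets the protons flow back and makes ATP, which the beating heart consumes without pause, and heart muscle is among the tissues richest in mitochondria. Several complex IV subunits exist in a form typical of heart and skeletal muscle and a form found in liver and most other tissues.

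Signals are given as log2 of the processed signal minus the 75th percentile of the array, so 0 is that percentile, and differences are dtg minus control. The percentile lay between 679.7 and 946 intensity units, lowest on the control 4 and dtg 4 arrays (679.7 and 704.4). Between 59.1% and 71.5% of probes were well above background on an array. Precision is limited by the number of arrays. All 8 markers of ventricular cardiomyocytes were measured, with a mean level between 8.03 and 8.11 in controls and between 8.03 and 8.17 in dtg hearts. The 1 probe for Igf1r read 0.18, 0.21, 0.38 and 1.04 in controls 1 to 4 and -0.30, -0.21, 0.17 and 0.40 in dtg 1 to 4. These ranges overlap (difference -0.43, SE 0.24, limma adjusted p = 1), and since the probe's place relative to the excised exon is not known here, it does not check the genotype. The 3 erythroid markers measured were higher in dtg hearts by 0.42 to 0.50 without passing the test. The 4 smooth muscle markers were all lower in dtg hearts, by -0.080 to -0.37, and the groups did not overlap for the lowest of them, Acta2 (difference -0.37, SE 0.11, limma unadjusted p = 0.00843, adjusted p = 1). All 7 atrial markers also had a lower mean in dtg hearts, by -0.11 to -1.03 with a median of -0.63. They varied widely between hearts (SE up to 1.27), and none reached an unadjusted p under 0.05 with limma. The part of any of these lists in the subunit values was not tested.

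No subunit gene passed the test between the groups. With limma's moderated test and Benjamini-Hochberg adjustment over all 21434 features, 0 of 86 members reached an adjusted p under 0.05, and 0% of all features did. At an unadjusted p under 0.05 there was 1 member (1.16%), Cox7b2, against 0.746% of all features, or 0.616% counting only those higher in dtg hearts as Cox7b2 was. The 86 members divided into 47 with a higher and 39 with a lower mean in dtg hearts. The lower share was 45.3%, beside 44.6% of all features. This split depended on how the arrays were treated: 65.1% of members and 54.5% of features were lower after quantile normalization. The shares were 90.7% and 70.7% when the median of each array was subtracted. With normexp background correction they were 3.49% and 56.7%. Leaving out spots darker than their local background made them 43% and 45.8%. The median difference over the members was 0.0048, and that over all features was 0.015. In no member were the groups without overlap, a pattern seen in 0.518% of features.

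The subunit genes were measured more tightly than most of the array, so the size of change can be bounded under the scaling used here. These bounds do not cover the choice of how the arrays are treated. The median difference over the members was -0.075 with the array median subtracted and 0.27 with normexp. The median SE of a difference was 0.12 for members and 0.18 for all features. This precision was not particular to the subunits. The median SE was also 0.12 for the ventricular cardiomyocyte markers, and it was 0.12 to 0.15 for the lists of related pathway genes described below. The 95% interval of the difference lay within a 1.5-fold change either way for 81 of 86 members (94.2%, against 59.3% of features) and within a 2-fold change for 85 (98.8%, against 81.1%). The 5 genes whose interval reached past 1.5-fold were Uqcrb, Cox4i1, Cox6b2, Cox7b2 and Atp5c1, named here after their values were seen. Apart from Cox7b2, the fitted differences ran from -0.14 for Ndufa1 to 0.20 for Cox4i1. The pooled SD within groups had a median of 0.14 over members and 0.26 over features, and ran from 0.064 for Ndufa11 to 0.51 for Cox6b2.

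**Figure D1:**
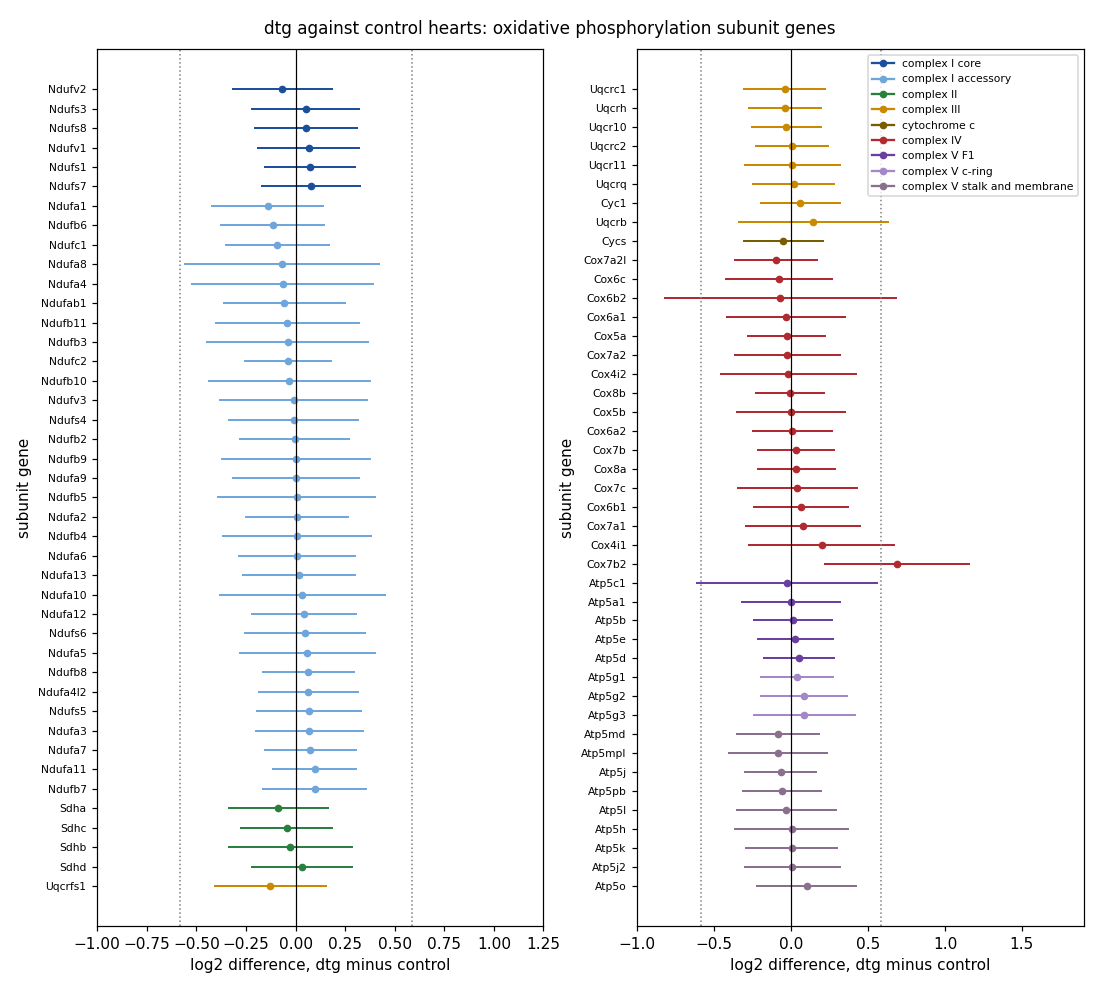
Each point is the log2 difference, dtg minus control, of 1 of 85 subunit genes (n = 4 hearts a group), with its 95% interval from limma as a line and the complex as the colour; dotted lines mark a 1.5-fold change either way. Points crowd around 0, from -0.14 (Ndufa1) to 0.20 (Cox4i1), with Cox7b2 apart at 0.69.

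Complex I accepts electrons from NADH. Its 38 genes had a median difference of 0.0075, with 23 higher and 15 lower and none at an unadjusted p under 0.05. The core subunits, which carry the redox groups and are shared with bacteria, had 5 of 7 genes higher, with a median of 0.052. Ndufs1, the largest iron-sulfur subunit, read 6.68, 6.86, 6.81 and 6.94 in controls 1 to 4 and 6.86, 6.87, 6.98 and 6.88 in dtg 1 to 4. Its difference was 0.073 (SE 0.098), and dtg hearts lay inside the control range apart from dtg 3, which was slightly above it. Ndufs7, which passes electrons on towards ubiquinone, read 7.50, 7.59, 7.67 and 7.41 in controls 1 to 4 and 7.60, 7.68, 7.73 and 7.48 in dtg 1 to 4. The heart numbered 4 was the lowest of its group on both sides, and the difference was 0.078 (SE 0.11).

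Ndufv2, a subunit of the NADH-oxidising module, differed by -0.068 (SE 0.11).

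The 31 accessory subunits, which surround the core and are needed for its assembly and stability, had 18 genes higher and 13 lower, with a median of 0.0049. Ndufa1, a small membrane-arm subunit, read 6.82, 6.87, 6.81 and 7.18 in controls 1 to 4 and 6.64, 6.82, 6.77 and 6.89 in dtg 1 to 4. The dtg values ran from below the 3 lower controls to just above them, control 4 stood apart at the top, and the difference of -0.14 (SE 0.12) had an interval of -0.42 to 0.14. Ndufb6, another membrane-arm subunit, differed by -0.12 (SE 0.11). Among those higher, Ndufa11 read 4.99, 5.04, 4.97 and 4.87 in controls 1 to 4 and 5.03, 5.03, 5.06 and 5.14 in dtg 1 to 4. It was the least variable member, yet its groups overlapped and the difference was 0.096 (SE 0.092). Ndufb7, a subunit on the intermembrane side, differed by 0.097 (SE 0.11).

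Complex II is succinate dehydrogenase, which also works in the citric acid cycle. Its 4 genes had a median difference of -0.036, 1 of them higher and 3 lower. Sdha, which carries the flavin and oxidises succinate, read 5.98, 5.91, 6.05 and 6.22 in controls 1 to 4 and 5.88, 6.03, 5.87 and 6.03 in dtg 1 to 4. The groups overlapped, with a difference of -0.086 (SE 0.11). The iron-sulfur subunit Sdhb differed by -0.027 (SE 0.13), and the membrane anchors by -0.044 (SE 0.099) for Sdhc and 0.031 (SE 0.11) for Sdhd.

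Complex III passes electrons from ubiquinol to cytochrome c. Its 9 genes had a median of 0.0056, with 5 higher and 4 lower. Uqcrfs1, the Rieske iron-sulfur protein, read 6.48, 6.60, 6.42 and 6.84 in controls 1 to 4 and 6.47, 6.47, 6.35 and 6.54 in dtg 1 to 4. Control 4 and control 2 were above all dtg hearts, the other controls were among them, and the difference was -0.13 (SE 0.12). Uqcrb, a subunit near the quinone site, read 6.76, 6.86, 7.13 and 7.46 in controls 1 to 4 and 6.84, 7.14, 7.62 and 7.18 in dtg 1 to 4. In both groups the slide 2 hearts (controls 3 and 4, dtg 2 and 3) included the highest value and the difference was 0.14 (SE 0.21), with an interval of -0.34 to 0.63. Cyc1, the cytochrome that docks cytochrome c, differed by 0.059 (SE 0.11). Cycs, the mobile carrier between complexes III and IV, read 7.07, 7.28, 7.32 and 7.45 in controls 1 to 4 and 7.19, 7.24, 7.16 and 7.34 in dtg 1 to 4. The dtg values lay within the control range, with a difference of -0.05 (SE 0.11).

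Complex IV, cytochrome c oxidase, had 17 measured genes with a median of -0.0018, 8 higher and 9 lower. Cox4i1, the common form of its largest nuclear-encoded subunit, read 8.49, 8.57, 8.15 and 8.85 in controls 1 to 4 and 9.08, 8.30, 8.74 and 8.72 in dtg 1 to 4. Values ran from a low control 3 to a high dtg 1 with wide overlap between the groups, and the difference was 0.20 (SE 0.20) with an interval of -0.27 to 0.67. Cox7a2l, a relative of Cox7a known for joining complexes III and IV into supercomplexes, read 6.18, 6.34, 6.31 and 6.57 in controls 1 to 4 and 6.17, 6.24, 6.23 and 6.38 in dtg 1 to 4. Dtg hearts were inside the control range or at its lower edge, with a difference of -0.097 (SE 0.11). Cox6c differed by -0.077 (SE 0.15).

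Cox7b2, a testis form of subunit 7b, was the 1 member that stood apart. It read -5.21, -4.65, -4.42 and -4.89 in controls 1 to 4 and -4.13, -3.86, -4.46 and -3.96 in dtg 1 to 4. Dtg hearts were mostly higher, but dtg 3 lay just below control 3, so the groups overlapped. The means were -4.79 ± 0.34 in controls and -4.11 ± 0.27 in dtg hearts (SD, n = 4), a fold of 1.61 with a difference of 0.69 (SE 0.20) and an interval of 0.22 to 1.16; limma's unadjusted p was 0.00958 and its adjusted p was 1. The probe was well above background on all 8 arrays, but its signal was low, with a mean of -4.45. Cox8c, at a mean of -7.17 and well above background on none of the arrays, was also higher in dtg hearts, by 0.76. The part of low signal in the Cox7b2 difference was not tested. The difference was 0.88 within slide 1 and 0.49 within slide 2. It was smaller under other treatments of the arrays: 0.46 with quantile normalization, 0.46 in the deposited values, 0.20 with normexp background correction once spots darker than their local background had been left out, and -0.017 with normexp on all spots. No member reached an unadjusted p under 0.05 with normexp, with or without such spots, with quantile normalization, median scaling or the deposited values, nor with control 4 and dtg 4 left out. Few features did: 0.0607% with normexp on all spots, 0.476% without the dark spots and 0.91% with quantile normalization. The share was 0.532% with median scaling, 0.905% in the deposited values and 0.849% without control 4 and dtg 4. At such shares, 0 of 86 members does not set the members apart. Cox6b2, another testis form, read -0.93, -0.42, -1.40 and -1.12 in controls 1 to 4 and -0.91, -1.89, -0.88 and -0.47 in dtg 1 to 4, the widest spread of any member, with a difference of -0.07 (SE 0.33). The 3 testis markers with a kept probe had mean levels between -5.26 and -3.23 in controls and between -5.49 and -2.96 in dtg hearts, and their part in the Cox7b2 values was not tested.

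Complex V is the ATP synthase, with a median of 0.0047 over 17 genes, 10 higher and 7 lower. The F1 head, where ATP is made, had 3 of 5 genes higher and a median of 0.013. Atp5c1, the rotating shaft of the head, read 4.07, 4.29, 3.67 and 4.79 in controls 1 to 4 and 4.07, 3.81, 4.36 and 4.48 in dtg 1 to 4. Its spread was wide in both groups, with a difference of -0.027 (SE 0.25) and an interval of -0.61 to 0.56. The 3 genes of the proton-carrying c-ring, which encode the same mature protein, differed by 0.039 (SE 0.10) for Atp5g1, 0.083 (SE 0.12) for Atp5g2 and 0.085 (SE 0.14) for Atp5g3. The stalk and membrane subunits had 4 of 9 higher and a median of -0.032. Atp5o, which holds the head to the outer stalk, read 5.92, 6.29, 6.20 and 6.35 in controls 1 to 4 and 6.25, 6.13, 6.55 and 6.23 in dtg 1 to 4. Dtg 3 was highest and control 1 lowest, with a difference of 0.10 (SE 0.14). Atp5md and Atp5j, smaller parts of the membrane and stalk, differed by -0.088 (SE 0.12) and -0.068 (SE 0.1).

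Muscle and liver forms of 3 complex IV subunits were set against each other within each array, which removes the scaling of the array. A level of such a within-array difference depends on the 2 probes and was not interpreted; its change between groups was tested with a two-sided exact permutation test, adjusted over 7 pairs, in which the smallest p that 4 against 4 hearts allow is 0.0286. The 250 bases upstream of the start of these genes are given first for the 5 genes present in the RefSeq table (build GRCm38.p6), to show the control regions of forms that share a protein role. They are written 5′ to 3′ on the strand of the gene, and capitals mark matches on either strand to the motif letters described after them.

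Cox6a1, chr5:115348959-115349208, minus strand: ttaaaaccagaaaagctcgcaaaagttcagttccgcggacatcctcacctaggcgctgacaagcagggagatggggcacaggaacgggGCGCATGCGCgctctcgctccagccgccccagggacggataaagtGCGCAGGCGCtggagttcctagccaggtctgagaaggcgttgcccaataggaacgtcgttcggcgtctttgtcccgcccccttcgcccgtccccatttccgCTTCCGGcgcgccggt

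Cox7a1, chr7:30183921-30184170, plus strand: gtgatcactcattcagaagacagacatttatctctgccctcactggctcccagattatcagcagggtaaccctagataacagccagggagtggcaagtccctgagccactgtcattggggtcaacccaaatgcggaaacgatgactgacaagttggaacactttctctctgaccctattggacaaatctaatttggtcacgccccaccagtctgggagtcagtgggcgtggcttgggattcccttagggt

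Cox7a2, chr9:79759854-79760103, minus strand: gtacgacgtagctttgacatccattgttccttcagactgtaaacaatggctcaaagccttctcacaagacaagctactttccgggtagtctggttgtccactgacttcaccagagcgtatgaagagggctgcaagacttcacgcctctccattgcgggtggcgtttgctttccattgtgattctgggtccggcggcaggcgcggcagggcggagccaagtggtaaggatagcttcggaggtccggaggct

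Cox8a, chr19:7217617-7217866, minus strand: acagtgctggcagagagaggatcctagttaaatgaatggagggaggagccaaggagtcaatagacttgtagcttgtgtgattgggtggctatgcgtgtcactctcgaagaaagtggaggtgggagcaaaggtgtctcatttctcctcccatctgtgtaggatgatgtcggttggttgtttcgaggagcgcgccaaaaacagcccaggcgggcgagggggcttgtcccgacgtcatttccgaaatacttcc

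Cox8b, chr7:140900447-140900696, minus strand: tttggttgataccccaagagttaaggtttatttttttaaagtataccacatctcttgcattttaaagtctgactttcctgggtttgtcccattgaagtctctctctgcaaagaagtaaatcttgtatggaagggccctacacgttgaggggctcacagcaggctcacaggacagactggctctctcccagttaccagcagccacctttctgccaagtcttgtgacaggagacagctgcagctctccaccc

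Matches were sought to the 10-letter motif of NRF1, CCGGAAG (the ETS family), AAGGTCA (ERR) and AAGATGG (YY1), factors known for acting on nuclear genes of mitochondria. Cox6a1, a liver form, held 2 NRF1 matches and 1 ETS match, and the other 4 windows held none. The window of 70 members was in the table. The NRF1 letters were in 12 of them (17.1%) and in 3.86% of 27025 gene windows, and the ETS letters in 11 (15.7%) against 7.05%. The ERR letters were in 5 (7.14%) against 4.05%, and the YY1 letters in 0 against 4.53%. Bases past the start of a gene were not searched, so matches there are not in these counts. The members' windows also had a higher median GC content, 56.4% against 52%, and its part in these shares was not tested. A match is a run of letters and not a bound site.

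The balance of muscle and liver forms did not differ detectably between the groups in any of the 3 pairs. Cox6a2, the muscle form of subunit 6a, read 8.86, 8.82, 8.66 and 8.91 in controls 1 to 4 and 8.78, 8.67, 8.82 and 8.99 in dtg 1 to 4, and its liver form Cox6a1 read 6.66, 6.72, 6.56 and 7.19 in controls 1 to 4 and 6.61, 6.61, 6.79 and 6.99 in dtg 1 to 4. The Cox6a2 minus Cox6a1 value was 2.20, 2.10, 2.09 and 1.72 in controls 1 to 4 and 2.17, 2.06, 2.03 and 2.01 in dtg 1 to 4. Control 4 was low and the other 7 hearts lay close together. The change was 0.042 (exact permutation p = 0.886, adjusted 0.886), with a 95% interval of -0.19 to 0.45.

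Cox7a1, the muscle form of subunit 7a, read 8.51, 8.59, 8.33 and 8.87 in controls 1 to 4 and 8.60, 8.37, 8.73 and 8.91 in dtg 1 to 4, and Cox7a2 read 5.95, 5.93, 5.95 and 6.29 in controls 1 to 4 and 5.81, 5.96, 5.92 and 6.33 in dtg 1 to 4. Their difference was 2.56, 2.66, 2.38 and 2.59 in controls 1 to 4 and 2.78, 2.41, 2.81 and 2.59 in dtg 1 to 4. Dtg 1 and dtg 3 were above every control and dtg 2 was near the lowest. The change of 0.10 had an exact permutation p of 0.371 (adjusted 0.881) and an interval of -0.25 to 0.43. Cox8b, the muscle form of subunit 8, read 7.91, 8.09, 7.94 and 7.94 in controls 1 to 4 and 7.91, 7.88, 8.03 and 8.03 in dtg 1 to 4, and Cox8a read 6.33, 6.43, 6.28 and 6.56 in controls 1 to 4 and 6.37, 6.46, 6.33 and 6.57 in dtg 1 to 4. The Cox8b minus Cox8a value was 1.58, 1.66, 1.66 and 1.38 in controls 1 to 4 and 1.54, 1.42, 1.69 and 1.46 in dtg 1 to 4. The groups covered nearly the same range, and the change was -0.042 (exact permutation p = 0.629, adjusted 0.881; interval -0.24 to 0.31). This last change was 0.021 after quantile normalization, with its sign turned.

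**Figure D2:**
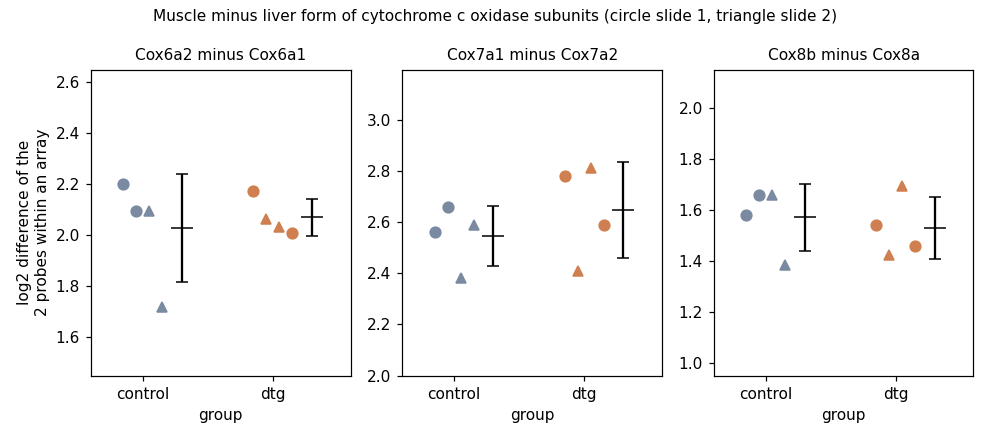
Within-array log2 difference of the muscle and liver form of 3 complex IV subunits for each heart; circles are slide 1, triangles slide 2, and the black bar is the group mean ± SD (n = 4). Control and dtg hearts overlap in all 3 panels, with changes of 0.042, 0.10 and -0.042.

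The other 4 pairs compare a common form with a form of another tissue or condition. Cox4i2, a form known from lung and low oxygen, against Cox4i1 gave a difference between groups of -0.22 (exact permutation p = 0.486, interval -0.91 to 0.67). Cox6b2 against Cox6b1 gave -0.13 (exact permutation p = 0.8, interval -1.69 to 1.09). Ndufa4l2, which low oxygen induces, against Ndufa4, grouped here by name with complex I although it is known as a complex IV subunit, gave 0.13 (exact permutation p = 0.514, interval -0.32 to 0.65). Counting Ndufa4 and Ndufa4l2 with complex IV left the median log2 difference, complex I subunits, at 0.0075 and the median log2 difference, complex IV subunits, at -0.0018. Cox7b2 minus Cox7b was -12.62, -12.10, -11.89 and -12.30 in controls 1 to 4 and -11.49, -11.29, -11.84 and -11.65 in dtg 1 to 4. Here every dtg heart was above every control heart, dtg 3 by a small margin, and the change was 0.66 (interval 0.05 to 1.33). Its exact permutation p was 0.0286, the smallest that can be reached, and 0.2 after adjustment over the 7 pairs, so it did not pass. The size of this change, the isoform ratio Cox7b2 minus Cox7b, also varied with the treatment of the arrays: it was 0.44 with quantile normalization, 0.16 with normexp without the dark spots and -0.32 with normexp on all spots.

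Single hearts differed from one another, and most subunit genes shared the pattern. Each gene was centred on its mean over the 8 hearts, and the median over the 86 members was then -0.099, -0.006, -0.044 and 0.14 in controls 1 to 4 and -0.074, -0.045, 0.014 and 0.11 in dtg 1 to 4. Control 4 and dtg 4 stood above the rest of their groups. Control 4 was the highest control for 59 members (68.6%) and for 33.2% of all features, and dtg 4 the highest dtg heart for 51 members (59.3%) and 37% of features. At the other end, control 1 was the lowest control for 43 members (50%, against 24.4% of features) and dtg 1 the lowest dtg heart for 37 (43%, against 23.3%). Some related lists, described below, shared the high medians in control 4 and dtg 4. These were 0.17 and 0.12 for complex V assembly, 0.22 and 0.055 for complex II and III assembly, and 0.10 and 0.092 for uncoupling and nucleotide exchange. They were lower for complex IV assembly (0.076 and 0.023), biogenesis (0.023 and 0.066), complex I assembly (0.018 and -0.03) and coenzyme Q synthesis (0.005 and -0.10).

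The stalk and membrane subunits of complex V had control 4 highest for 9 of 9 genes and dtg 4 for 7 of 9, counts that were 4 and 6 of 9 after quantile normalization. The complex I accessory subunits followed, at 24 and 21 of 31, and complex IV at 10 and 12 of 17. Among the complex I core subunits control 4 was highest for 2 of 7 and dtg 4 for 1 of 7, and their median was 0.067 in control 4 and -0.054 in dtg 4, where the accessory subunits stood at 0.16 and 0.15. Among the accessory subunits Ndufa10 went the other way and read 5.61, 5.63, 5.57 and 5.18 in controls 1 to 4 and 5.60, 5.69, 5.74 and 5.08 in dtg 1 to 4. Control 4 and dtg 4 were its lowest values by a clear margin. Uqcrc1, a core protein of complex III, also had its lowest value in each group there, reading 6.12, 6.11, 5.96 and 5.89 in controls 1 to 4 and 6.13, 6.01, 5.96 and 5.80 in dtg 1 to 4. Ndufa10 and Uqcrc1 were named after their values were seen.

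How far these 2 hearts stood out rested on the scaling. With quantile normalization control 4 was highest for 31 and dtg 4 for 29 of 86 members, and with the deposited values for 30 and 28; with the array median subtracted the counts were 62 and 15. The gap between core and accessory subunits within these arrays remained. After quantile normalization the complex I core median was -0.068 in control 4 and -0.15 in dtg 4, and the accessory median 0.036 and 0.026. These arrays had the lowest 75th percentiles. Markers of atrial muscle were also high in them: the mean level of 7 of 7 atrial markers was 2.03, 0.56, 2.85 and 3.32 in controls 1 to 4 and 2.16, 0.35, 0.74 and 2.99 in dtg 1 to 4, and all 7 had a kept probe. The part of either in the subunit values was not tested.

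**Figure D3:**
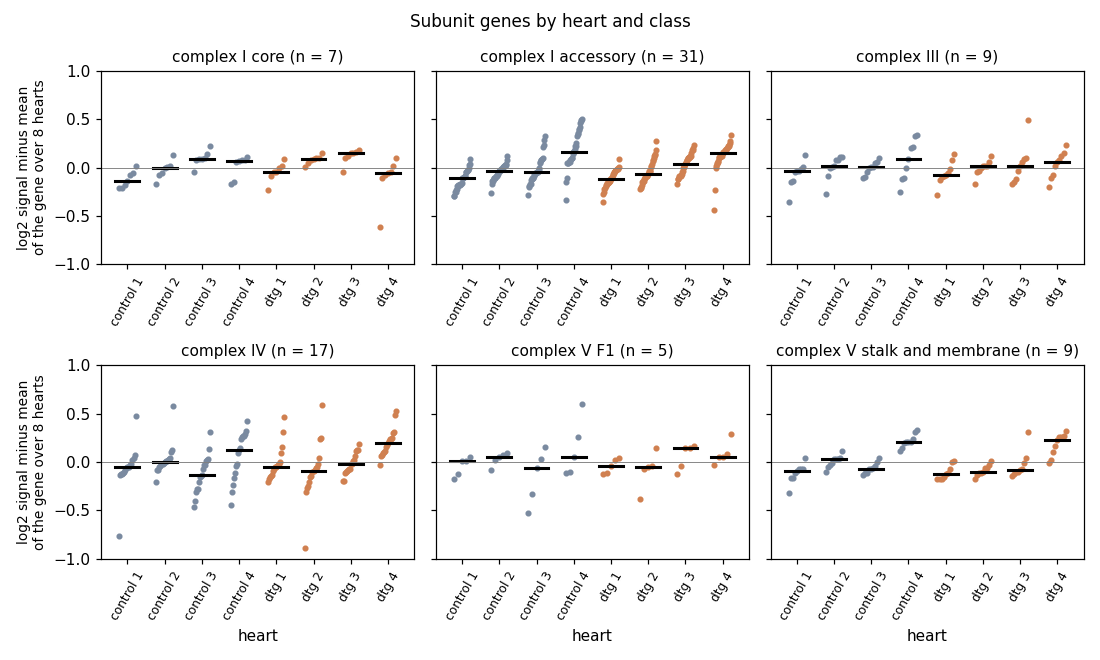
Log2 signal of each subunit gene minus its mean over the 8 hearts, by class (n genes a panel), with control hearts in grey-blue, dtg hearts in orange and black bars at the class median. Control 4 and dtg 4 stand high for complex V stalk and membrane subunits (medians 0.20 and 0.22) and not for complex I core subunits (0.067 and -0.054).

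Each of 2 slides carried 4 arrays, 2 of either group. With the scaling used here, the difference between groups took opposite signs on the 2 slides for most members. Control 4 was on slide 2 and dtg 4 on slide 1. The split by slide thus holds the 2 hearts that stood high and is not independent of the pattern described above. On slide 1 (controls 1 and 2, dtg 1 and 4) dtg hearts gave the higher mean for 68 of 86 members (median 0.090). On slide 2 (controls 3 and 4, dtg 2 and 3) 59 were lower, with a median of -0.069. Features as a whole were nearer to an even split, with 51.8% higher on slide 1 and 44.6% lower on slide 2. The same sign on both slides was found for 21 members (24.4%), and for 33.1% of features. After quantile normalization the median of the centred member values was -0.005, 0.051, -0.013 and 0.036 in controls 1 to 4. It was -0.012, -0.035, -0.01 and 0.01 in dtg 1 to 4. By these medians dtg hearts were not the higher ones on either slide. The split of single genes by slide was not tested under that scaling. Ndufa8, an accessory subunit of complex I named after its values were seen, read 4.65, 4.68, 5.14 and 5.41 in controls 1 to 4 and 4.58, 5.07, 4.82 and 5.13 in dtg 1 to 4, a difference of 0.19 on slide 1 and -0.33 on slide 2. The complex I core subunits, also apart in the pattern by heart, had medians of 0.057 on slide 1 and 0.044 on slide 2. For a typical member slide took up 7.73% and group 3.52% of its variance over the 8 hearts (medians); over all features these were 17.3% and 2.88%.

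**Figure D4:**
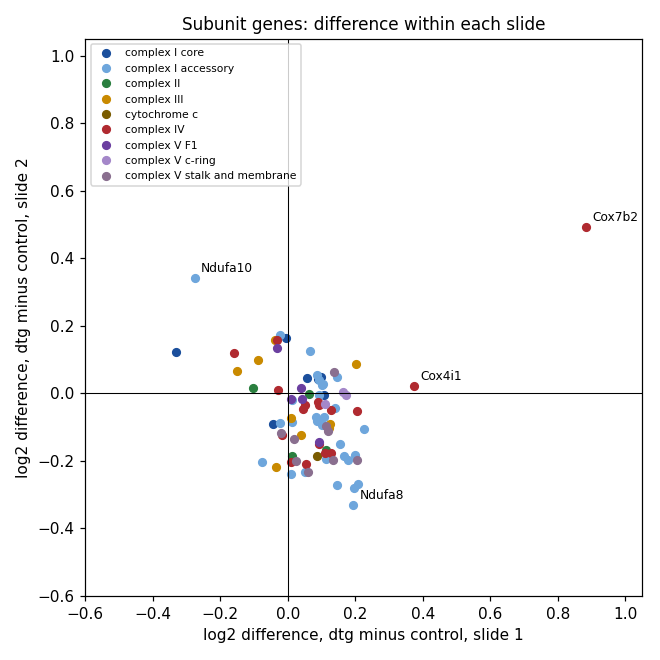
Log2 difference, dtg minus control, of each subunit gene on slide 1 (horizontal) and slide 2 (vertical), 2 hearts a group on each, coloured by complex. With the scaling used here, most genes lie at the lower right. In dtg hearts 68 of 86 are higher on slide 1 and 59 of 86 are lower on slide 2. Cox7b2 is positive on both (0.88 and 0.49).

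Further probes of a gene mostly gave small differences too. Since most member differences were themselves under 0.1 in size, closeness within 0.1 does not show that the probes of a gene agreed. Of the 31 further kept probes of 23 member genes, 28 gave a difference within 0.1 of the probe used, the largest gap was 0.27, and 9 had the opposite sign.

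No gene of the pathways around the complexes passed the test. The adjusted p from limma was 1 for each gene named, and no gene of the 7 pathway lists reached an unadjusted p under 0.05. That level was reached by 0.746% of all features, so a count of 0 does not set these lists apart. Of all 21434 features, 11865 had a higher mean in dtg hearts. Of the complex I assembly factors 6 of 16 were higher, with a median of -0.0088; Ndufaf7 differed by 0.078 (SE 0.096) and Ndufaf5 by -0.14 (SE 0.11). Of those for complexes II and III 3 of 9 were higher, with Sdhaf1 at 0.049 and Sdhaf4 at -0.13, and of those for complex IV 10 of 21, with Coa7 at 0.12 and Lrpprc at -0.13. For complex V 2 of 5 were higher, with Atpaf2 at 0.015 and Atpaf1 at -0.16. Mitochondrial transcription and biogenesis genes had 11 of 20 higher and a median of 0.031, with Myc at 0.19 (SE 0.11) and Polg, the mitochondrial DNA polymerase, at -0.094 (SE 0.094). Coenzyme Q synthesis had 5 of 13 higher, with Pdss1 at 0.12 and Coq7 at -0.079. Uncoupling and nucleotide exchange had 3 of 11 higher, with the mitochondrial creatine kinase Ckmt2 at 0.088 and the uncoupling protein Ucp3 at -0.14.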

How the data were processed

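RNA of 4 control and 4 dtg hearts was measured on 1-colour (Cy3) Agilent arrays. The authors deposited 1 scanner table per array, whose processed signal is a linear intensity (per the file headers, from Agilent Feature Extraction 10.7.3.1). The authors' second deposit, a log2 table, was found from the scanner values to be quantile normalized and centred on each probe's median; its tool was not given in the sources used here. Probes were named through RefSeq accessions without versions (26369 of 39429 matched, assembly GRCm38.p6). After control and outlier spots had been left out, log2 values were averaged over the spots of a probe and the array's 75th percentile over probes was subtracted. Probes with any spot well above background on 4 or more of the 8 arrays were kept, and the brightest probe of a gene by mean signal was used. The percentile was also taken over spots, and the filter also set at 0.5 of a probe's spots; the settings used were chosen after these were seen, since they gave the feature count of an earlier analysis. Groups were compared with limma 3.58.1 in R 4.3.3 (lmFit, eBayes, no covariates, Benjamini-Hochberg over all 21434 features, threshold 0.05), checked on simulated data. Isoform pairs were compared by exact permutation, with intervals from inverting that test. Normexp background correction (offset 50) was pulled on control 4 and dtg 4 by spots darker than their local background, with a fitted background mean as low as -1740, and was also run without such spots.

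The members, lists, pairs and motifs were chosen with earlier results of these data known. The genes named are all members of isoform pairs, the 2 per direction with the smallest unadjusted p in each group of subunits, the brightest and dimmest probe, members that did not pass the filter, and 1 gene per direction of each other pathway list. Ndufa8, Ndufa10, Uqcrc1, Sdhb, Atp5c1, Atp5g1, Atp5g3 and the smooth muscle marker Acta2 fall outside this rule; their values had been seen when they were named. Some results that this rule takes are not reported here.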

Additional observations from a re-analysis of the deposited data

Results flagged for a closer look

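Of 94 groups of 4 values examined, 4 held a value set apart from the other 3, and chance alone flags about 1 in 20. In controls, control 4 was the highest for Cox7a2 at 6.28, with the next at 5.95, for Ndufa1 at 7.18, with the next at 6.87, and for Sdhd at 6.23, with the next at 6.07. In dtg hearts, dtg 3 was highest for Ndufs1 at 6.98, with the next at 6.88. So 3 of the 4 were in control 4.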

How the results depend on the processing

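The count of members past the adjusted threshold was 0 under every alternative run, and within slides, where 2 hearts a group were left, the smallest adjusted p of a member was 0.91. Depth of signal was no limit for most members, but with 4 hearts a group the interval of most differences spans 0, and many fitted differences near 0 turned sign under some setting; the cause was not tested. Intervals cover sampling of these hearts only.

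With normexp the members lower in dtg hearts numbered 3 (3.49%, against 56.7% of all features). Those at an unadjusted p under 0.05 numbered 0, against 0.0607% of features. The median of the centred member values was -1.281 in control 4 and -0.229 in dtg 4, and between 0.168 and 0.304 in the other hearts. The median difference was 0.27 over all members and -0.046 over all features. It was 0.27 for complex I, 0.23 for II, 0.27 for III, 0.27 for IV and 0.27 for V. Cox7b2 minus Cox7b was -0.32. Differences turned to -0.017 for Cox7b2 and to 0.28 for Cox8b, 0.23 for Cox6a1, 0.24 for Cox7a2, 0.21 for Ndufa4, 0.15 for Uqcrfs1, 0.25 for Cycs, 0.14 for Ndufa1, 0.15 for Ndufb6, 0.19 for Ndufv2, 0.19 for Sdha, 0.21 for Sdhc, 0.16 for Cox7a2l, 0.19 for Cox6c, 0.18 for Atp5md and 0.23 for Atp5j. Without dark spots the unadjusted count was 0, Cox8b 0.017 and Cox4i2 0.011. Quantile normalization gave 0 at the unadjusted threshold, 0.021 for Cox8b minus Cox8a, -0.026 for Cox8a and -0.012 for Sdhd, and the deposited values gave 0, 0.026, -0.027 and -0.013. Subtracting the median gave 0 at the unadjusted threshold, 78 members lower and -0.074 for complex III, with Cox6a2 at -0.071, Cox7a1 at -0.0033, Ndufa4l2 at -0.015, Cox8a at -0.047, Cox6b1 at -0.016, Cox7b at -0.050, Cyc1 at -0.021, Ndufs1 at -0.0063, Ndufs7 at -0.0012 and Sdhd at -0.048. The mean of all probes put Cox8a at -0.0045.

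Within slide 1, 18 members were lower, Cox6a2 minus Cox6a1 was -0.058, Cox6b2 minus Cox6b1 0.015 and Ndufa4l2 minus Ndufa4 -0.042, with Cox6a1 at 0.11, Cox7a2 at 0.13, Cox6b1 at -0.032, Ndufa4 at 0.14, Cyc1 at -0.039, Cycs at 0.087, Ndufb6 at 0.0081, Ndufs7 at -0.0067, Sdha at 0.012, Cox7a2l at 0.0096, Cox6c at 0.055 and Atp5md at 0.026. Within slide 2, 59 were lower and 0 reached the unadjusted threshold, against 2.31% of all features. On that slide complex III stood at -0.072, Cox8b minus Cox8a at 0.035, Cox4i2 minus Cox4i1 at 0.097, Cox6a2 at -0.036, Cox7a1 at -0.052, Cox8b at 0.011, Cox4i2 at 0.12, Cox8a at -0.024, Cox7b at -0.034, Sdhd at -0.0016, Sdhc at 0.015 and Atp5g2 at -0.0043.

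The 4 settings that follow were added after seeing the data. Without control 4 and dtg 4, 0 members reached the unadjusted threshold, against 0.849% of all features. Cox6a2 minus Cox6a1 was then -0.042, Cox6a2 -0.018, Cox6a1 0.024, Cox6b1 -0.0086 and Cox7b -0.056. With dtg 3 left out too and slide as a block, 2 members (2.33%) reached that threshold, against 3.1% of all features. The isoform ratio Cox6a2 minus Cox6a1 was then -3.56e-06, Cox6a2 -0.025, Cox4i2 0.010, Cox7b -0.061, Sdhd -0.017, Sdhc 0.032 and Atp5g2 -6.3e-05. The percentile over spots left 41.9% of members lower, and the filter at 0.5 of the spots 45.3%. With the percentile over spots the median log2 difference, complex IV subunits, was 0.0030, against -0.0018.

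Leaving out each heart in turn, the count of members lower ran from 25 to 55, Cox6a2 minus Cox6a1 from -0.062 to 0.099 and Cox6b2 minus Cox6b1 from -0.34 to 0.22. Differences ran from -0.12 to 0.14 for Cox4i2, -0.032 to 0.029 for Cox8b, -0.26 to 0.21 for Cox6b2, -0.051 to 0.057 for Cox6a2, -0.011 to 0.17 for Cox7a1, -0.014 to 0.086 for Cox8a, -0.11 to 0.10 for Cox6a1, -0.13 to 0.061 for Cox7a2, -0.028 to 0.12 for Cox6b1, -0.19 to 0.094 for Ndufa4, -0.017 to 0.094 for Cyc1, -0.12 to 0.0071 for Cycs, -0.17 to 0.017 for Cox6c, -0.030 to 0.080 for Sdhd and -0.045 to 0.066 for Cox7b.

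Deviations of same-numbered hearts correlated at 0.542, -0.545, 0.152 and 0.161 for numbers 1 to 4. Controls 1 and 4 correlated best with the dtg heart of their own number, and controls 2 and 3 did not. Whether the numbers pair the samples cannot be decided from 4 correlations of mixed sign. With the replicate block 1 member was at an unadjusted p under 0.05, as without it, against 276 and 160 of all features.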
